A study of Polypterus senegalus with 8 samples.

Results

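The miR-200 family was followed through pectoral fin regeneration in the bichir, Polypterus senegalus, an early-branching ray-finned fish whose fins regrow after amputation. Members were taken by name, as every entry of the miRNA table called miR-200, miR-141 or miR-429 with any letter, copy or arm. Of 153 miRNAs, 4 met this rule: miR-200a-3p, miR-200c-3p, miR-429a-3p and miR-200b. No entry was called miR-141. Tissue was collected before amputation (0 dpa, days post amputation) and at 3, 7 and 14 dpa, after part of the fin had been removed under anesthesia. Each stage was 1 small RNA library of pooled tissue from fish obtained through a pet supplier. Strain, age and sex are not given in the sources used here. With 1 library per stage no difference below has a replicate check, no test between stages was possible, and the spread between fish cannot be measured. All intervals cover 95% counting error only.

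miRNAs of this family are enriched in epithelial cells of vertebrates. In mammals they bind transcripts of the repressors ZEB1 and ZEB2, which silence the epithelial adhesion gene E-cadherin, and so help to hold cells in an epithelial state. A miRNA recognises its targets mainly through its seed, bases 2 to 8, and the family falls into a pair of seed groups that differ at a single base. In a cut fin, epidermis closes over the stump before the blastema, a mound of growing cells, builds up beneath it.

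The sequences the study lists for the 4 members are shown first, because shares are given below by seed. They are written 5′ to 3′ in the DNA letters of the listing, with the seed in capitals.
miR-200a-3p: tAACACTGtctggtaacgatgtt
miR-200c-3p: tAATACTGcctggtaatgatga
miR-429a-3p: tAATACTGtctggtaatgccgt
miR-200b: tAATACTGcctggtaatgatgaatc
Listed sequences were found for all 153 miRNAs, and only these 4 carried either of the 2 seeds. miR-200a-3p was alone with AACACTG, and the other 3 shared AATACTG. Counting from 1 at the 5′ end, miR-200c-3p differs from the first 22 bases of miR-200a-3p by T4C in the seed and C9T, T17C and A22T behind it, and miR-200a-3p has 1 more base at its 3′ end. miR-429a-3p keeps the seed of miR-200c-3p and also differs from it at 4 of 22 bases (C9T, A19C, T20C and A22T). The entry named miR-200b holds all 22 bases of miR-200c-3p and 3 more at its 3′ end, in capitals in taatactgcctggtaatgatgaATC. Reads of both entries may therefore come from the same gene or from near-identical copies, and the pair is also given as a sum below. miR-141, which in zebrafish and mammals shares the seed of miR-200a, cannot be described here. The study's zebrafish listing gives miR-141-3p and miR-200a-3p the same mature sequence. Reads named miR-200a-3p here may therefore include reads of a miR-141 gene, which was not tested.

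The libraries differed greatly in depth, with 6083774, 3353354, 196763 and 6858045 miRNA reads at 0, 3, 7 and 14 dpa. Levels are given as reads per 1000000 miRNA reads (CPM), and 1 read was worth 5.08 CPM at 7 dpa against 0.164 CPM at 0 dpa. All 4 members passed the filter of a mean of at least 10 CPM, as did all but 11 of the 153 miRNAs. A change is the difference of log2(CPM + 1) between libraries, and 0.58 on this scale is 1.5-fold. miR-21 took 14.5%, 60.3%, 52.7% and 62.5% of reads at 0, 3, 7 and 14 dpa. Muscle miRNAs, a list of 5, took 24.8%, 0.864%, 0.265% and 2.24%. Both shifts move the CPM of every other miRNA. Scaled by library totals, the median difference over all miRNAs past the filter was -1.35, 0.21 and -1.43 at 3, 7 and 14 dpa against 0 dpa, so changes are also given relative to this median. In bulk tissue, fewer cells of a type and less RNA per cell cannot be told apart.

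Scaled by library totals, the summed level of the family stayed within 1.86-fold of 0 dpa, while its make-up turned over. Together the 4 members held 93167, 47058, 5613 and 73343 reads at 0, 3, 7 and 14 dpa, which is 15314, 14033, 28527 and 10694 CPM, or 1.53%, 1.40%, 2.85% and 1.07% of miRNA reads. The 7 dpa library stood highest and the 14 dpa library lowest. Set against 0 dpa, the sum differed by -0.13 at 3 dpa, with a counting interval of -0.14 to -0.11. The difference was 0.90 at 7 dpa, between 0.86 and 0.94, and -0.52 at 14 dpa, between -0.53 and -0.50. Only the difference at 7 dpa exceeded 1.5-fold, at 1.86 times the 0 dpa level. Relative to the median miRNA the sum was 1.23, 0.69 and 0.91 higher at 3, 7 and 14 dpa. The 7 dpa value is also smaller than 1.5-fold when muscle miRNAs are left out of the totals (0.49), and the signs at 3 and 14 dpa depend on the scaling, as described below.

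**Figure D1:**
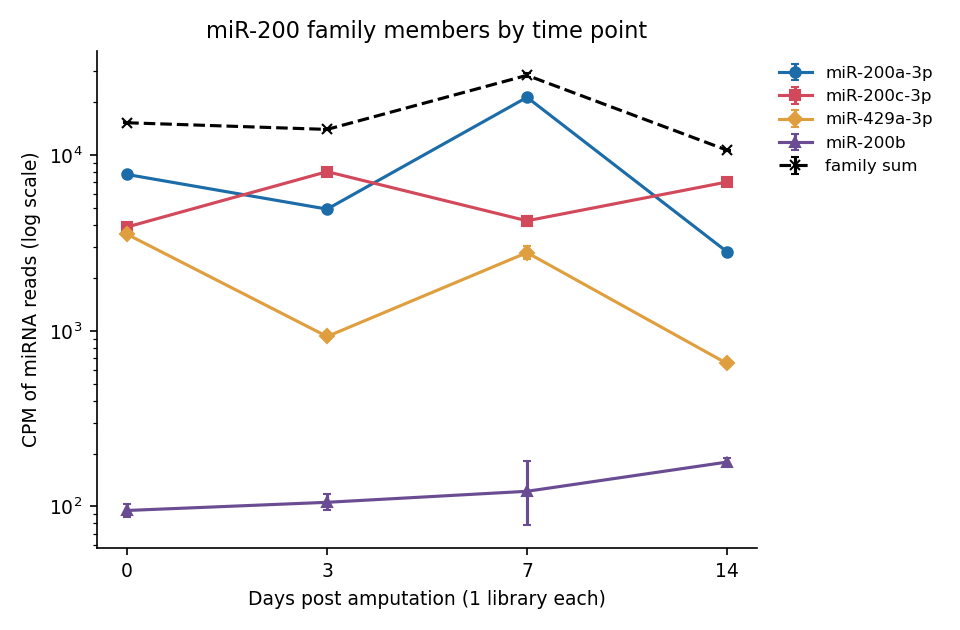
Levels of the 4 family members and of their sum in CPM (log axis) at 0, 3, 7 and 14 dpa, with evenly spaced time points, 1 library each and bars for the 95% counting interval. miR-200a-3p peaks at 7 dpa with 21381 CPM, while miR-200c-3p stands higher at 3 and 14 dpa than at 0 and 7 dpa.

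miR-200a-3p, the member with the AACACTG seed, was the most read member at 0 and 7 dpa. It had 7770.0, 4934, 21381 and 2822 CPM at 0, 3, 7 and 14 dpa, from 47271, 16545, 4207 and 19354 reads. No pair of these counting intervals overlapped, with the order 7, 0, 3 and 14 dpa from high to low. At 7 dpa it ranked 5th of the 153 miRNAs, against 27th at 0 dpa. It was 1.46 higher at 7 dpa than at 0 dpa, with bounds of 1.41 and 1.51. The differences of -0.66 at 3 dpa (bounds -0.68 and -0.63) and -1.46 at 14 dpa (bounds -1.49 and -1.44) turned to 0.59 at 3 dpa under a trimmed mean of log ratios and to 0.086 at 14 dpa under median of ratios, both scalings described below. Relative to the median miRNA these changes were 0.70, 1.25 and -0.04 at 3, 7 and 14 dpa.

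miR-200c-3p, the most read member with the AATACTG seed, followed another course. It had 3905, 8065, 4234 and 7042 CPM at 0, 3, 7 and 14 dpa, from 23758, 27045, 833 and 48291 reads. On this scale the 3 and 14 dpa libraries were high and the 0 and 7 dpa libraries low, and the counting intervals of the last 2 overlapped (3951 to 4530 CPM at 7 dpa and 3856 to 3955 CPM at 0 dpa). Against 0 dpa it was higher by 1.05 at 3 dpa (1.02 to 1.07) and 0.85 at 14 dpa (0.83 to 0.87), and it changed by 0.12 at 7 dpa (0.02 to 0.22). The 7 dpa value was 0.97, past 1.5-fold, with totals without miR-21. Relative to the median miRNA it was 2.40 and 2.28 higher at 3 and 14 dpa, with -0.10 at 7 dpa.

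miR-429a-3p shares its seed with miR-200c-3p but did not follow it. In zebrafish and mammals miR-429 is encoded beside miR-200a and miR-200b. Its levels were 3544, 929, 2790.2 and 652 CPM at 0, 3, 7 and 14 dpa, from 21561, 3114, 549 and 4471 reads. On the CPM scale both the 3 and 14 dpa libraries lay under the other pair. Its differences from 0 dpa were -1.93 at 3 dpa (bounds -1.99 and -1.88) and -2.44 at 14 dpa (bounds -2.49 and -2.39). At 7 dpa the difference was -0.34 (bounds -0.47 and -0.22), which became 0.51 once miR-21 was taken out of the library totals. The 7 dpa value was -0.66 under the trimmed mean, -0.48 under median of ratios and -0.75 without muscle miRNAs in the totals. At 14 dpa miR-429a-3p was 5.44-fold lower than at 0 dpa. Relative to the median miRNA the differences were -0.58, -0.56 and -1.02 at 3, 7 and 14 dpa, and on this scale the 3 and 7 dpa values were both just within 1.5-fold.

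miR-200b was the rarest member, with 577, 354, 24 and 1227 reads, or 94.8, 106, 122 and 179 CPM, at 0, 3, 7 and 14 dpa. The intervals of the first 3 libraries overlapped one another, and the 7 dpa value (78.2 to 181 CPM on 24 reads) also overlapped that at 14 dpa. Under library totals only the change at 14 dpa exceeded 1.5-fold, at 0.91 (0.77 to 1.05), and it was 0.53 without muscle miRNAs in the totals. Its changes at 3 and 7 dpa were 0.15 (-0.04 to 0.34) and 0.36 (-0.29 to 0.94), which counting error alone allows to be 0. Both depended on scaling. At 3 dpa the change was 1.39 under the trimmed mean, 1.35 under median of ratios, 1.25 without miR-21, -0.24 without muscle miRNAs and 1.51 when centred on the median miRNA. The 7 dpa change was 1.21 without miR-21 and 0.15 when so centred, and the 14 dpa change was then 2.33. Reads of miR-200c-3p outnumbered those of miR-200b 41.2, 76.4, 34.7 and 39.4 times over 0, 3, 7 and 14 dpa, and the ratio at 3 dpa was the one that stood apart.

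Counted against the 1.5-fold threshold under library totals, 1 of the 4 members was higher and 2 were lower at 3 dpa, where 18.3% of all miRNAs past the filter were higher and 66.2% lower. At 7 dpa 1 member was higher and 0 lower, against 38.7% higher and 38% lower in all, and 3 were within the threshold. At 14 dpa 2 members were higher and 2 lower, against 14.1% higher and 67.6% lower. The median change of the 4 members was -0.25, 0.24 and -0.31 at 3, 7 and 14 dpa, beside the -1.35, 0.21 and -1.43 of all miRNAs past the filter. These counts moved with the scaling. At 3 dpa 3 members were higher and 1 lower under the trimmed mean, and 2 higher and 1 lower under median of ratios or without miR-21. Relative to the median miRNA 3 members were higher and 0 lower. Over all miRNAs past the filter, 53 were higher and 56 lower under the trimmed mean, against 26 and 94 under library totals. They numbered 49 and 57 under median of ratios, and 47 and 62 without miR-21. Such counts of all miRNAs are not given relative to the median miRNA. At 7 dpa 3 members were higher and 0 lower without miR-21. Under the trimmed mean or without muscle miRNAs 1 member was higher and 1 lower. Of all miRNAs past the filter, 85 were higher and 43 lower without miR-21, against 55 and 54 under library totals. They numbered 49 and 57 under the trimmed mean, and 47 and 58 without muscle miRNAs. At 14 dpa 0 members were higher and 2 lower without muscle miRNAs, and 2 higher and 1 lower under each of the other scalings. Of all miRNAs past the filter, 15 were higher and 102 lower without muscle miRNAs, against 20 and 96 under library totals. The trimmed mean gave 45 and 65, median of ratios gave 59 and 56, and totals without miR-21 gave 46 and 64. All 3 comparisons share the 0 dpa library. In the plot of changes among all miRNAs, the members spread over 2.98 log2 units at 3 dpa, 1.81 at 7 dpa and 3.35 at 14 dpa.

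**Figure D2:**
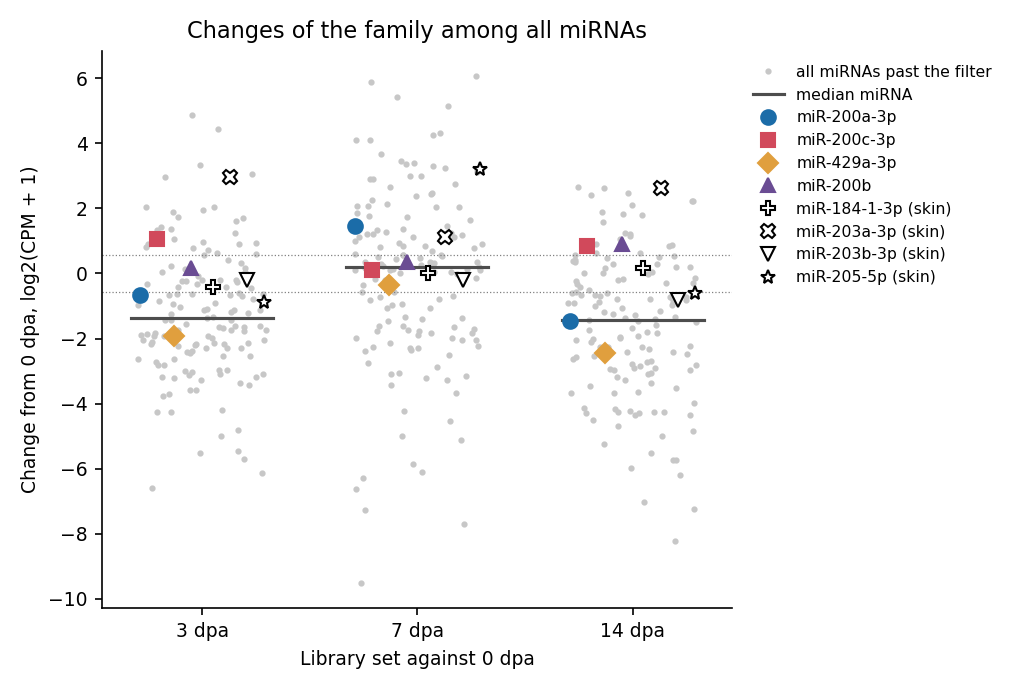
Change from 0 dpa in log2(CPM + 1) of all miRNAs past the filter (grey points) at 3, 7 and 14 dpa, with the median miRNA (bar), 1.5-fold (dotted lines), the 4 family members (filled) and the 4 skin miRNAs (open). miR-200c-3p lies above and miR-429a-3p below the median at 3 and 14 dpa, and miR-200a-3p lies highest of the members at 7 dpa.

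Comparisons among the later libraries do not use 0 dpa. They were not recomputed under the other scalings described below, only set beside the median miRNA. For 7 against 3 dpa, miR-200a-3p was 2.12 higher (2.07 to 2.16) and miR-429a-3p 1.59 higher (1.45 to 1.72), while miR-200c-3p changed by -0.93 (-1.03 to -0.83). The median over all miRNAs was 1.09, and 57.7% were over 1.5-fold higher and 26.1% lower. Relative to that median the changes were 1.02 for miR-200a-3p, 0.49 for miR-429a-3p and -2.02 for miR-200c-3p. Scaling matters here too. Under the trimmed mean, miR-429a-3p differed from 0 dpa by -0.68 at 3 dpa and by -0.66 at 7 dpa. For miR-200a-3p these values were 0.59 and 1.15. For 14 against 7 dpa the signs turned round, with -2.92 for miR-200a-3p (-2.97 to -2.87), -2.10 for miR-429a-3p (-2.22 to -1.97) and 0.73 for miR-200c-3p (0.64 to 0.83). Here 27.5% of all miRNAs past the filter were higher and 60.6% lower, with a median of -1.47. Relative to that median the changes were -1.45 for miR-200a-3p, -0.62 for miR-429a-3p and 2.21 for miR-200c-3p. For 14 against 3 dpa miR-200a-3p moved less, by -0.81 (-0.84 to -0.78). So did miR-200c-3p, by -0.20 (-0.22 to -0.17), and miR-429a-3p, by -0.51 (-0.58 to -0.44). The change of miR-200b was 0.76 (0.59 to 0.93). For miR-200b it was 0.21 (-0.45 to 0.80) for 7 against 3 dpa and 0.55 (-0.03 to 1.19) for 14 against 7 dpa. For 14 against 3 dpa 22.5% of all were higher and 41.5% lower, with a median of -0.34. Relative to that median the changes were -0.46 for miR-200a-3p, 0.15 for miR-200c-3p, -0.17 for miR-429a-3p and 1.10 for miR-200b.

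Shares within the family do not depend on how the libraries are scaled, since each is a ratio of reads in 1 library. miR-200a-3p, and with it the AACACTG seed, carried 50.7%, 35.2%, 75.0% and 26.4% of family reads at 0, 3, 7 and 14 dpa. The Wilson bounds were 50.4% and 51.1% for 0 dpa, 34.7% and 35.6% for 3 dpa, 73.8% and 76.1% for 7 dpa, and 26.1% and 26.7% for 14 dpa. The AATACTG seed carried the remaining 49.3%, 64.8%, 25.05% and 73.6%. The 2 seeds were thus close to equal in uninjured fins and moved away from balance at every later stage, towards AATACTG at 3 and 14 dpa and towards AACACTG at 7 dpa. Within the AATACTG group the balance moved too. miR-200c-3p held 25.5%, 57.5%, 14.8% and 65.8% of family reads at 0, 3, 7 and 14 dpa, miR-429a-3p held 23.1%, 6.62%, 9.78% and 6.10%, and miR-200b stayed under 2%, at 0.619%, 0.752%, 0.428% and 1.67%. Read as 1 entry, miR-200b and miR-200c-3p held 26.1%, 58.2%, 15.3% and 67.5%.

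**Figure D3:**
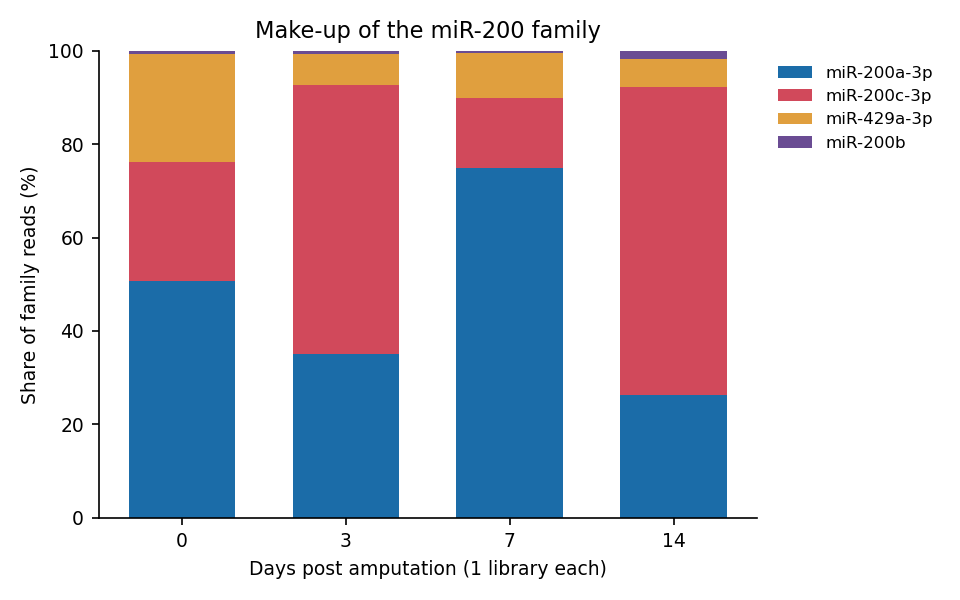
Share of family reads (percent, bars sum to 100) carried by each member at 0, 3, 7 and 14 dpa, 1 library each. miR-200c-3p takes the largest part at 3 and 14 dpa (57.5% and 65.8%) and miR-200a-3p at 0 and 7 dpa (50.7% and 75.0%).

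The ratio of miR-200c-3p to miR-200a-3p gave this turnover as 1 number. There were 0.503, 1.63, 0.198 and 2.50 reads of miR-200c-3p per read of miR-200a-3p at 0, 3, 7 and 14 dpa. The log2 ratio lay 1.70 above that of 0 dpa at 3 dpa (bounds 1.67 and 1.74) and 2.31 above it at 14 dpa (bounds 2.28 and 2.34). At 7 dpa it differed by -1.34 (bounds -1.45 and -1.23). Between 14 and 7 dpa the ratio differed 12.6-fold. Adding miR-200b to miR-200c-3p left it at 0.515, 1.66, 0.204 and 2.56. The ratio of miR-429a-3p to miR-200a-3p was 0.456 at 0 dpa and lower at each later stage, at 0.188, 0.130 and 0.231. miR-200c-3p and miR-429a-3p stood at 1.10 reads to 1 at 0 dpa and 1.52 at 7 dpa, and at 8.68 and 10.8 to 1 at 3 and 14 dpa. The 7 dpa library, with the fewest reads, lay opposite to 3 and 14 dpa in the first of these ratios. Its 833 and 4207 reads set a counting interval of -2.45 to -2.23 around a log2 ratio of -2.34. With 7 dpa left aside, the share of miR-200a-3p was still lower at 3 and 14 dpa than at 0 dpa, and that of miR-200c-3p higher.

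**Figure D4:**
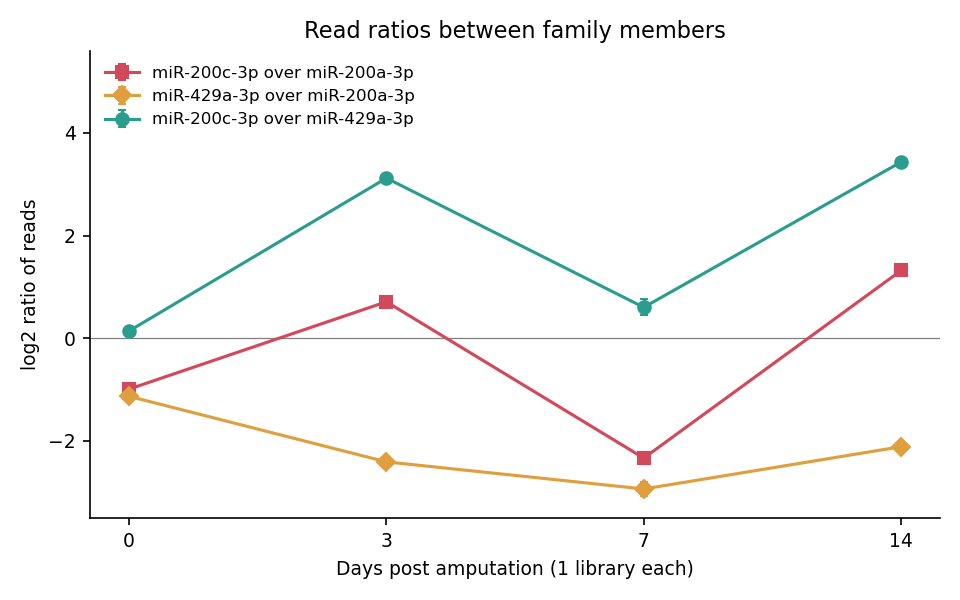
log2 ratio of reads between pairs of members within each library at 0, 3, 7 and 14 dpa, with 95% counting intervals, where 0 means equal reads. miR-200c-3p over miR-200a-3p goes above 0 at 3 and 14 dpa (0.71 and 1.32) and below it at 0 and 7 dpa (-0.99 and -2.34).

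The values appear to count 1 listed sequence of 20 to 25 bases per miRNA. If so, longer and shorter forms of a member with the same seed are not included. The exception is the entry named miR-200b, which extends miR-200c-3p and is counted as a member of its own. Since the listed forms of miR-200a-3p, miR-200c-3p and miR-429a-3p end differently, a shift in 3′ ends between libraries would move these shares, and its part in them was not tested.

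The family was next set beside the skin list, miR-184, miR-203 and miR-205, which are abundant in vertebrate epidermis. The 4 skin entries together held 67532, 83668, 138873 and 96833 CPM over 0, 3, 7 and 14 dpa, and so outnumbered the family 4.41, 5.96, 4.87 and 9.05 times. Taken singly, only miR-184-1-3p outnumbered the family in every library. Family reads per read of miR-205-5p were 1.95, 3.31, 0.389 and 2.08, and per read of miR-203a-3p 3.09, 0.364, 2.63 and 0.348. Reads of miR-203b-3p were fewer than those of the family throughout. Muscle miRNAs outnumbered the family 16.2 times at 0 dpa, whereas the family outnumbered them 1.62 and 10.8 times at 3 and 7 dpa, and at 14 dpa there were 0.478 family reads per muscle read. Under library totals the skin sum differed from 0 dpa by 0.31, 1.04 and 0.52 at 3, 7 and 14 dpa. The muscle sum differed by -4.84, -6.55 and -3.47, with all 5 muscle miRNAs over 1.5-fold lower in each library. Of all miRNAs past the filter, 66.2%, 38% and 67.6% were over 1.5-fold lower at 3, 7 and 14 dpa. The skin values moved across the trimmed mean, median of ratios, totals without miR-21 and totals without muscle miRNAs, all described below. At 3 dpa they ran from -0.09 without muscle miRNAs to 1.56 under the trimmed mean. At 7 dpa they lay between 0.63 and 1.89, and at 14 dpa between 0.14 and 2.07. Relative to the median miRNA the skin sum was 1.66, 0.83 and 1.95 higher at 3, 7 and 14 dpa. The part of skin and muscle content in the family's levels was not tested.

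Skin miRNAs also diverged from each other. miR-203a-3p, which in mouse epidermis promotes differentiation, had 4962, 38571, 10846 and 30760.2 CPM over 0, 3, 7 and 14 dpa, and was high in the libraries where miR-200c-3p was high. miR-205-5p, known in mammals from basal epithelial cells, had 7840.0, 4240.2, 73261 and 5144 CPM and, like miR-200a-3p, was high at 7 dpa alone. Neither course was particular to these miRNAs. Of all miRNAs past the filter, 18.3%, 38.7% and 14.1% were over 1.5-fold higher at 3, 7 and 14 dpa than at 0 dpa. The median miRNA also stood higher at 7 dpa (0.21) than at 3 and 14 dpa (-1.35 and -1.43). Reads of miR-203a-3p per read of miR-205-5p numbered 0.633, 9.10, 0.148 and 5.98 at 0, 3, 7 and 14 dpa. This ratio was chosen after its values were seen, and, as for miR-200c-3p over miR-200a-3p, it lay above 1 at 3 and 14 dpa and below 1 at 0 and 7 dpa. The highest library was 3 dpa for this ratio and 14 dpa for that of miR-200c-3p over miR-200a-3p. miR-184-1-3p varied less, between 40505 and 60700.2 CPM, and miR-203b-3p had 405, 351, 351 and 229 CPM. Leukocyte miRNAs, a list of 5, were also highest at 7 dpa, with 26221, 39582, 61073 and 15199.7 CPM at 0, 3, 7 and 14 dpa. All 5 were over 1.5-fold higher at 7 than at 0 dpa, and their part in the 7 dpa values of the family was not tested. Other lists were not highest at 7 dpa. Erythroid miRNAs, a list of 2, had 278, 7084, 1520 and 804 CPM at 0, 3, 7 and 14 dpa. Vascular miRNAs, a list of 3, fell from 53482 CPM at 0 dpa to 2282 at 7 dpa. Skeletal mesenchyme miRNAs, a list of 4, had 35299 CPM at 0 dpa and 10022 at 7 dpa.

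Over all 3 changes from 0 dpa, the 5 miRNAs nearest to the family sum were not skin miRNAs. Among the 116 non-members that averaged 100 CPM or more, the smallest Euclidean distances over the changes at 3, 7 and 14 dpa were those of miR-17a-1-5p (0.20), miR-19b-3p (0.37), miR-20b-5p (0.74), miR-146a-5p (0.83) and miR-20a-2-5p (0.95). miR-17a-1-5p had 915, 798, 1713 and 729 CPM at 0, 3, 7 and 14 dpa. Of the skin miRNAs, miR-203b-3p came 9th and miR-184-1-3p 10th, with distances of 1.15 and 1.16, while miR-205-5p (2.45) and miR-203a-3p (4.41) came 31st and 84th. The members themselves lay 1.22 (miR-200a-3p), 1.55 (miR-200b), 1.96 (miR-200c-3p) and 2.92 (miR-429a-3p) from their sum. Between members the smallest distance was 0.93, for the overlapping sequences of miR-200b and miR-200c-3p, and the largest was 4.46, for miR-200c-3p and miR-429a-3p with their shared seed. The median distance over all pairs of 120 miRNAs was 4.49. The distances rest on 3 changes that share 1 library. For distances over 3 and 14 dpa alone, the 100 CPM mean was taken over 0, 3 and 14 dpa, which left 103 non-members. The nearest of these were miR-30e-2-5p (0.18), miR-17a-1-5p (0.20) and the skin miRNA miR-203b-3p (0.31). The 7 dpa value of miR-203b-3p rests on 69 reads.

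Because the library totals were moved by miR-21 and by muscle miRNAs, each change from 0 dpa was recomputed under other scalings. The changes of miR-200c-3p at 3 and 14 dpa stayed positive under a trimmed mean of log ratios (2.30 and 2.01), median of ratios (2.26 and 2.40), totals without miR-21 (2.15 and 2.04) and totals without muscle miRNAs (0.65 and 0.47). Those of miR-429a-3p at 3 and 14 dpa stayed negative, at -0.68 and -1.28 under the trimmed mean and -2.33 and -2.82 without muscle miRNAs. The higher level of miR-200a-3p at 7 dpa held in the same 4 scalings, between 1.05 without muscle miRNAs and 2.31 without miR-21. Its lower levels depended on the scaling. At 3 dpa the change became 0.59 under the trimmed mean, 0.55 under median of ratios and 0.45 without miR-21, but -1.05 without muscle miRNAs. At 14 dpa it was -0.30 under the trimmed mean, 0.086 under median of ratios, -0.27 without miR-21 and -1.84 without muscle miRNAs.

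**Figure D5:**
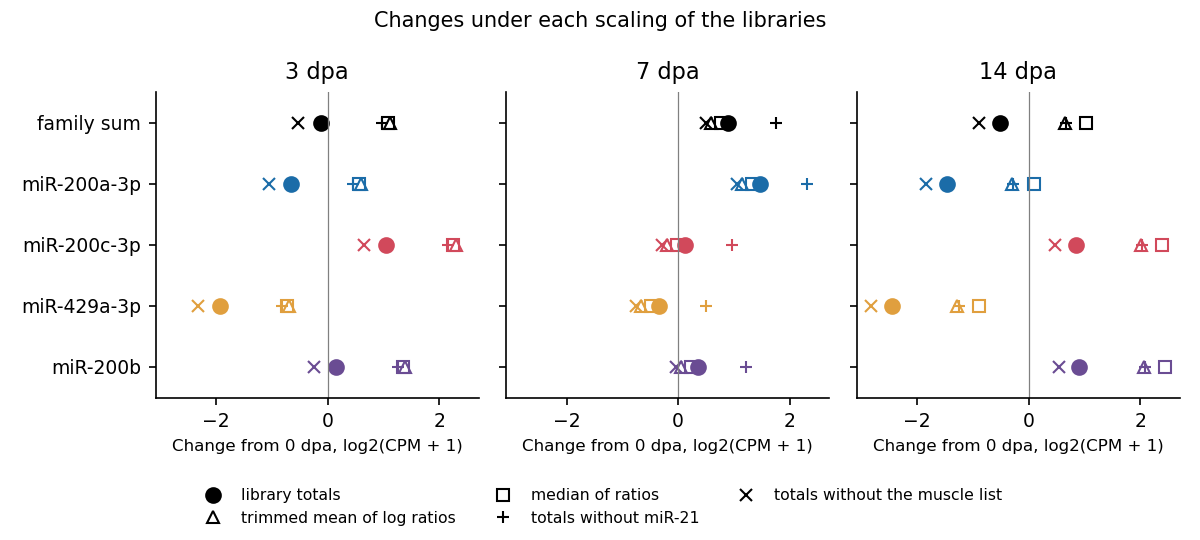
Change from 0 dpa in log2(CPM + 1) of the family sum and the 4 members at 3, 7 and 14 dpa under library totals (filled circles) and 4 other scalings (open symbols and crosses). A scaling moves all 5 items of a panel by nearly the same amount, so the sum lies on either side of 0 at 3 and 14 dpa (-0.52 to 1.12 and -0.90 to 1.03) while the order of the members stays.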

How the data were processed

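Bichir pectoral fin small RNA was analysed, with 1 library at each of 0, 3, 7 and 14 dpa. The mRNA libraries were not used here. The authors clipped, trimmed and collapsed reads with the FASTX Toolkit and annotated tags of 20 to 25 bases with miRMiner against miRBase 21, then used edgeR. The authors deposited log2 values named log CPM. Since 2 raised to each value above 0 was whole within 0.01% in 100% of cases, they were read as log2 of unscaled counts, and a listed 0 as 0 reads. Counts were scaled to CPM by the library total, and changes taken on log2(CPM + 1), which understates changes of low miRNAs. Ratio intervals are exact (Clopper-Pearson) and share intervals Wilson, at 95%. Intervals for the difference of a log2 ratio between libraries use a normal approximation on the log scale, also at 95%. Reads are not independent molecules. No test between groups was run. Named miRNAs were all members, all skin entries and the 5 nearest to the family sum with a mean of at least 100 CPM. Members and lists were chosen with earlier results of these data known. Sequences came from the study's listing, and no genome position is given. Tried beside this were scaling by trimmed mean of log ratios (trimming 30% and 5%), median of ratios, totals without miR-21 or muscle miRNAs, no depth scaling, centring on the median miRNA, pseudocounts of 0.1 and 5 CPM, thinning, other filters and a threshold of 2-fold. Python 3.11.15, numpy 2.4.6, scipy 1.17.1, pandas 2.3.3 and matplotlib 3.10.9 were used, and the code was tested on simulated data.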

Additional observations from a re-analysis of the deposited data

Results flagged for a closer look

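One member stood past 1.5-fold on both sides of 0 dpa. miR-200a-3p was 1.46 higher at 7 dpa by log2(CPM + 1), with a change of -0.66 at 3 dpa and of -1.46 at 14 dpa, each by its whole counting interval under library totals. With 1 library per stage the difference between stages was not tested. Both lower values depended on scaling, becoming 0.59 at 3 dpa and -0.30 at 14 dpa under the trimmed mean of log ratios, where the 7 dpa value was 1.15.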

How the results depend on the processing

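No paired analysis was possible because each stage holds 1 library, and for the same reason no replicate could be left out. For the family sum, the changes at 3, 7 and 14 dpa with the trimmed mean of log ratios were 1.12, 0.58 and 0.65. They were 1.08, 0.76 and 1.03 under median of ratios, 0.98, 1.75 and 0.67 with totals without miR-21, -0.52, 0.49 and -0.90 without muscle miRNAs, -0.99, -4.05 and -0.35 with no depth scaling, and 1.23, 0.69 and 0.91 relative to the median miRNA. Thinning to the 7 dpa depth gave -0.093 at 3 dpa and -0.50 at 14 dpa, and leaving out miR-200b gave -0.53 at 14 dpa. Other pseudocounts moved the sum by less than counting error. With no depth scaling the 7 dpa change of miR-200a-3p was -3.49, since that library had the fewest reads. For the remaining values the cause was not tested. The 3 dpa change of miR-200a-3p was 0.59, 0.55, 0.45 and 0.70 under the trimmed mean, median of ratios, totals without miR-21 and centring on the median miRNA, and the 14 dpa change was 0.086 under median of ratios.

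Shares and ratios within the family moved little, but only thinning and the joining of miR-200b to miR-200c-3p were tried on them. Neither setting could move them far, since thinning draws from the same reads and miR-200b held at most 1.67% of family reads. Thinned, the share of miR-200a-3p was 51.1% at 0 dpa and 36.6% at 3 dpa, and the log2 ratio of miR-200c-3p to miR-200a-3p was 0.62 at 3 dpa. Reading miR-200b and miR-200c-3p as 1 entry gave shares of 26.1%, 58.2% and 67.5% at 0, 3 and 14 dpa and log2 ratios of -0.96 and 1.36 at 0 and 14 dpa.

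The counts of all miRNAs past 1.5-fold depended on scaling. At 3 dpa 53 were higher and 56 lower by the trimmed mean, 49 higher and 57 lower by median of ratios. At 14 dpa the trimmed mean put 45 higher, and median of ratios put 59 higher and 56 lower. Totals without miR-21 left 47, 85 and 46 higher at 3, 7 and 14 dpa, and 62 lower at 3 dpa. At 2-fold 17 were higher at 3 dpa. Taking the filter over 0, 3 and 14 dpa only, chosen after seeing the data, gave 25 higher and 94 lower at 3 dpa. At 7 dpa depth limits miR-200b, with 24 reads.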
